A study of Mus musculus with 8 samples.

Results

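CD4 T cells from spleens of Gpr65 knockout (KO) mice were cultured under conditions that favour Th22 cells or under conditions that favour Th17 cells, and their single-cell transcriptomes were compared. The cells were all those that the deposited cell table marks as KO and that had at least 500 detected genes, 53418 of the 101688 cells that passed the same limit in the whole series. KO Th22 cells (25081) came from 2 libraries of 10711 and 14370 cells, and KO Th17 cells (28337) from 2 libraries of 14262 and 14075 cells. The series also holds 2 wild-type (WT) Th22 and 2 WT Th17 libraries, with 48270 cells, cultured in the same ways. All mice were females of 10 weeks, and all cultures were harvested on day 3. KO and WT Th22 cultures received FICZ at 400 nM, IL-6 at 40 ng/ml, IL-1b at 20 ng/ml and IL-23 at 20 ng/ml. KO and WT Th17 cultures received IL-6 at 25 ng/ml with the same IL-1b and IL-23 and no FICZ, so the effects of FICZ and of the higher IL-6 dose cannot be told apart. Replicates 1 and 2 of a group carry numbers in the labels without a statement that they are separate mice or cultures. The p-values therefore rest on a spread that may be technical.

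Gpr65 encodes a G protein-coupled receptor of leukocytes that senses extracellular protons and signals through cAMP. FICZ is a tryptophan photoproduct that binds the aryl hydrocarbon receptor (AHR). Ligand-bound AHR enters the nucleus, pairs with ARNT and binds a short DNA element, and it induces its own negative regulators Ahrr and Tiparp as well as cytochrome P450 genes that degrade the ligand. In helper T cells AHR ligands are known to favour IL-22, while IL-6 and IL-23, through STAT3, and IL-1b favour IL-17A and IL-17F.

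Counts of unique molecular identifiers (UMIs) were added up per library and tested gene by gene with edgeR's quasi-likelihood test, with a mean for each of the 4 groups over all 8 libraries. A gene passed at a Benjamini-Hochberg adjusted p below 0.05 over the 13412 genes tested. Levels are given as CPM, counts per 1000000 UMIs of a library, after TMM scaling. The sums held 47772752 and 58895019 UMIs in KO Th22 libraries, against 39024395 and 37835941 UMIs in KO Th17 libraries. Median UMIs per cell were 4142 and 3669.5 in KO Th22, against 2430 and 2354 in KO Th17, so depth per cell moved with the culture in the KO. In WT the medians overlapped, at 2627 and 3679 in Th22 and 2489 and 3847 in Th17. Gpr65 itself was at 0.887 and 0.964 CPM in KO Th22 and 1.58 and 1.55 CPM in KO Th17, from 41 to 65 UMIs per library, and did not pass (log2 fold change -0.75, edgeR adjusted p = 0.14). The T cell genes Cd3e and Cd4 were present in all 4 KO libraries, with Cd4 at 91.1 and 95.01 CPM in Th22 and 84.9 and 103 CPM in Th17. The erythroid markers were at 0 in 3 of the 4 KO libraries, and the summed B cell, CD8, NK, gamma-delta, myeloid and stromal markers each lay between 2.36 and 34.1 CPM without scaling factors in every KO library, without a consistent order of the cultures across lists.

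In KO cells, Th22 cultures had higher levels of AHR target genes and of Ifitm1 and Ifitm3, membrane proteins induced by interferon, and lower levels of the cytokine genes Il24 and Il1rn. Of 13412 genes, 16 passed (0.119%), 10 higher (0.0746%) and 6 lower (0.0447%) in Th22. The genes that rose were Cyp1a1, Cyp1b1, Ifitm1, Gpr55, Pltp, Tiparp, Ifitm3, Asb2, Rcbtb2 and Serpinb1a. The genes that fell were Pdzk1ip1, Il1rn, Il24, Fcmr, Itga3 and Klf4. With library totals in place of TMM factors, which moved the median log2 fold change of all genes to -0.15 from 0.01, 8 genes were higher and 17 lower. With only the 4 KO libraries fitted, 0 genes passed in edgeR and 859 of 12955 had an unadjusted p below 0.05, and with depth per cell (median UMIs) as a covariate only Ifitm1 and Ifitm3 passed, both higher. DESeq2 on all 8 libraries called 71 genes higher and 110 lower, the 16 genes among them. With the replicate number as a block within genotype, edgeR called 1103 genes higher and 1166 lower, the 16 genes among them. The labels do not say what a number marks, so the main fit used no block.

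**Figure D1:**
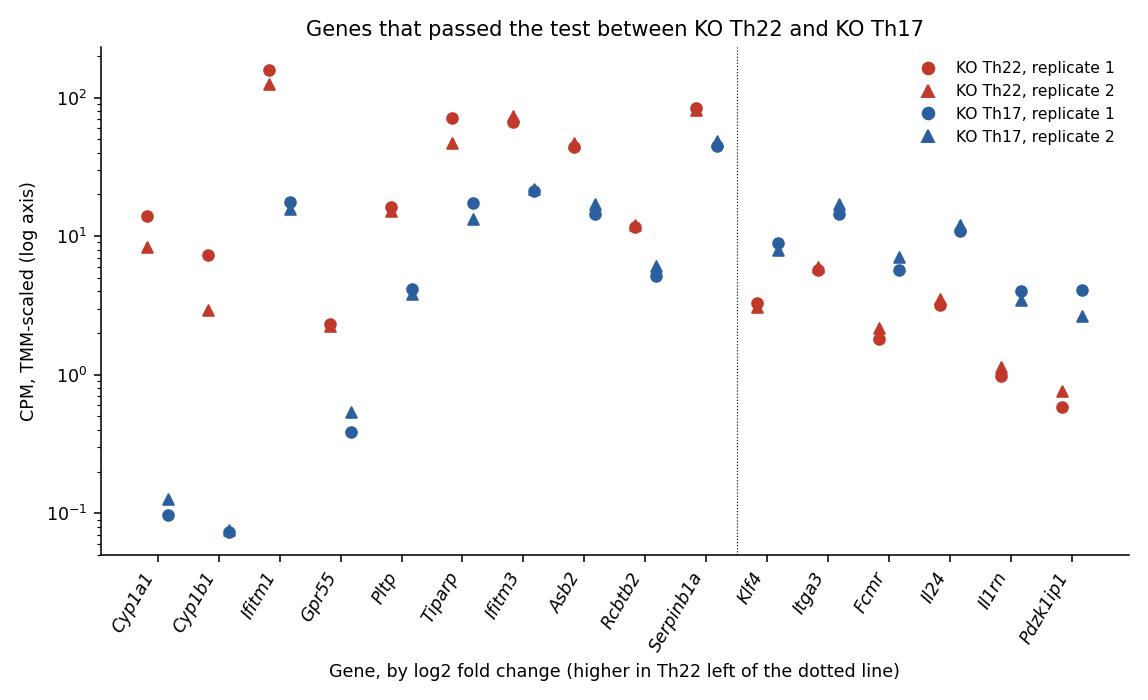
Level of each of the 16 genes that passed, in CPM on a log axis, in the 2 KO Th22 libraries (red, left of each pair) and the 2 KO Th17 libraries (blue); circles are replicate 1 and triangles replicate 2. The Th22 and Th17 libraries do not overlap for any of the 16 genes, and the gap is widest for Cyp1a1 and Cyp1b1.

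The core of the DNA element that AHR binds was looked for in the promoters of the genes that passed, and 6 promoters that hold it are printed here because AHR targets lead the comparison. The element searched was GCGTG on either strand (CACGC on the other), in windows from 250 bases before to 50 after the start, taken from RefSeq on GRCm38.p6. Capitals mark the match, and each sequence reads 5′ to 3′ along its gene. Ahrr, which missed the threshold, is shown as a classical target.
Cyp1a1 (chr9:57697363-57697662, plus strand): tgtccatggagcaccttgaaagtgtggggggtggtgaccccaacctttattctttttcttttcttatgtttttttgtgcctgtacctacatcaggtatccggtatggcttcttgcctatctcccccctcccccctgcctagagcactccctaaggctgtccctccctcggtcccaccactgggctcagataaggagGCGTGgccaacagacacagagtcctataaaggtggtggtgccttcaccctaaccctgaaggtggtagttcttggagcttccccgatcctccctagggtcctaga
Cyp1b1 (chr17:79715012-79715311, minus strand): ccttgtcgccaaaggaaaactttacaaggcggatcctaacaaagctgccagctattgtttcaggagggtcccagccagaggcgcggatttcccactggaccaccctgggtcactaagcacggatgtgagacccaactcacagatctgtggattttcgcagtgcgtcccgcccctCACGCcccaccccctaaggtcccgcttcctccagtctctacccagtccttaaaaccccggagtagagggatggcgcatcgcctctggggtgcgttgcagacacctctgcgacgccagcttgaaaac
Ahrr (chr13:74292282-74292581, minus strand): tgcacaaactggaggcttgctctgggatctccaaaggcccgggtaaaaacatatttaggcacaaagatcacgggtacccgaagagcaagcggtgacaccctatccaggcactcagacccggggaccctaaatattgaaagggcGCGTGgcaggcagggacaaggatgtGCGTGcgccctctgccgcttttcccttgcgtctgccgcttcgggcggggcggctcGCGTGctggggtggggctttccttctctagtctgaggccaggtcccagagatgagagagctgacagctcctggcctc
Tiparp (chr3:65528197-65528496, plus strand): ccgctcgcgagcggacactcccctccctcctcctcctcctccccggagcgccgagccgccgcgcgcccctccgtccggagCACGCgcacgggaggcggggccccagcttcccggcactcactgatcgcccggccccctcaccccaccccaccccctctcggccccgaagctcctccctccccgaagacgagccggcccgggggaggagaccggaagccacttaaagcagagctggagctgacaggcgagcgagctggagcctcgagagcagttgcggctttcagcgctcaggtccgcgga
Pltp (chr2:164857659-164857958, minus strand): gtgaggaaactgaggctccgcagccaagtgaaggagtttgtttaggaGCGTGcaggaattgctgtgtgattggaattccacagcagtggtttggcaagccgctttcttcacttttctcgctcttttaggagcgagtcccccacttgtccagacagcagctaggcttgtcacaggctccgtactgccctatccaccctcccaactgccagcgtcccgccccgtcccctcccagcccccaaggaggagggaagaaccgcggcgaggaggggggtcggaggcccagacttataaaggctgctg
Ifitm3 (chr7:141010695-141010994, minus strand): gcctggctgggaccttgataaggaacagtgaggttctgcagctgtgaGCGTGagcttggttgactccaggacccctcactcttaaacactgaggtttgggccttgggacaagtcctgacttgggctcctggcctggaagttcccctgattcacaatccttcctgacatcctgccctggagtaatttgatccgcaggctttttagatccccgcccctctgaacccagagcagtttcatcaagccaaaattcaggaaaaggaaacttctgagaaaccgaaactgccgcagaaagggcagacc

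The promoter of Ahrr held 3 matches and the other 5 promoters 1 each. Of 9 genes that rose and had a promoter in the table, 5 held a match, against 1 of 5 genes that fell, Il1rn, in 1 of its 3 promoters. The motif was common: 32.4% of 32851 promoters and 35.2% of 27025 genes in the table held it. Promoters of Ifitm1, Asb2, Gpr55, Rcbtb2, Klf4, Itga3, Fcmr and Pdzk1ip1 held none within these windows. Serpinb1a and Il24 had no promoter in the table.

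Of the genes that passed, the AHR targets Cyp1a1 and Cyp1b1 had the largest fold changes. Of 11 AHR target genes on the list, 7 were tested and 4 passed, all higher (Cyp1a1, Cyp1b1, Tiparp and Asb2), against 0.0746% of all genes tested. By sign 6 of the 7 were higher, against 6999 of 13412 genes, with a median log2 fold change of 1.94, against 0.01 over all genes tested. The list, Asb2 included, was chosen with earlier results of these data known. Cyp1a1 and Cyp1b1, with 3 to 5 UMIs per KO Th17 library, met the count filter only through Th22 libraries. These counts therefore describe the list and are not independent support. None of the list passed with the depth covariate or with the 4 KO libraries alone. Leaving out a library gave 4 and 5 without KO Th22 replicate 1 and 2, and 2 without any one of the other 6. Cyp1a1, the P450 enzyme that is the classical readout of AHR activity (chromosome 9, 57687928 to 57703824, plus strand, ENSMUSG00000032315), was at 14.0 and 8.40 CPM in KO Th22 and at 0.0971 and 0.127 CPM in KO Th17. The Th17 libraries held 4 and 5 UMIs of Cyp1a1 in all, the Th22 libraries 646 and 444. The ratio of the pooled UMI rates was 87.3, with an exact 95% interval of 45.8 to 191 that covers counting error only, and the fitted log2 fold change was 6.61 ± 0.51 (SE, edgeR adjusted p = 0.0052).

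Cyp1b1, a second P450 gene under AHR control, was at 7.33 and 2.91 CPM in KO Th22 and at 0.0728 and 0.0763 CPM in KO Th17 (log2 fold change 6.04 ± 0.72, edgeR adjusted p = 0.035). Its Th22 replicates lay far apart, and its call was lost when either KO Th17 library or any of the 4 WT libraries was left out. Tiparp, the ADP-ribosyltransferase that restrains AHR, was at 71.1 and 47.2 CPM in KO Th22 and at 17.4 and 13.3 CPM in KO Th17 (log2 fold change 1.94 ± 0.21, edgeR adjusted p = 0.024). The lowest Th22 library was above the highest Th17 library, and the call was lost without the same 6 libraries as for Cyp1b1. Asb2, a subunit that guides a ubiquitin ligase to its substrates, was at 44.1 and 47.2 CPM in KO Th22 and at 14.4 and 17.1 CPM in KO Th17 (log2 fold change 1.53 ± 0.12, edgeR adjusted p = 0.0056). Its call held without each of the 8 libraries in turn.

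Ahrr, the AHR repressor, was at 8.11 and 5.46 CPM in KO Th22 and at 1.72 and 1.12 CPM in KO Th17. Its log2 fold change of 2.25 ± 0.29 missed the threshold (edgeR adjusted p = 0.054) and it passed in 6 of the 19 alternatives that set no replicate number as a block. The quinone reductase Nqo1 was at 0.779 and 0.605 CPM in KO Th22 and 0.316 and 0.280 CPM in KO Th17 and did not pass (edgeR adjusted p = 0.24). Ugt1a7c, named after its values were seen, was the member lower by sign (log2 fold change -0.73), from 6 to 11 UMIs per library. Ugt1a6a was below the count filter, and Cyp1a2, Aldh3a1 and Gsta1 were not among the symbols of the matrix.

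The AHR machinery itself had no member past the test. Of its 6 tested genes, 4 were higher and 2 lower by sign, with a median of 0.06. Ahr was at 13.0 and 6.96 CPM in KO Th22 and at 16.2 and 9.41 CPM in KO Th17. Replicates of a culture differed more than the cultures did, while Ahr was lower in Th22 at each replicate number. The chaperone Hsp90ab1, which holds unliganded AHR in the cytosol, was at 2291 and 2547 CPM in KO Th22 and 2189 and 2133 CPM in KO Th17 (log2 fold change 0.16, edgeR adjusted p = 0.52).

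Ifitm1 had the smallest adjusted p of all genes. It encodes a small membrane protein of the interferon-induced transmembrane family (chromosome 7, 140967221 to 140969825, plus strand, ENSMUSG00000025491). Its level was 157 and 125 CPM in KO Th22 and 17.8 and 15.6 CPM in KO Th17, a log2 fold change of 3.08 ± 0.15 (edgeR adjusted p = 0.00064). Ifitm3 lies close by on the same chromosome (141009586 to 141010770, minus strand, ENSMUSG00000025492) and restricts entry of viruses. It was at 66.5 and 74.2 CPM in KO Th22 and at 21.2 and 21.9 CPM in KO Th17 (log2 fold change 1.71 ± 0.13, edgeR adjusted p = 0.0052). Both calls held without each of the 8 libraries, on thinned cells and with the depth covariate (adjusted p = 0.049 each). The family has similar members, so the assignment of reads among them is uncertain.

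The remaining genes that rose have mixed roles. Pltp, a phospholipid transfer protein of lipoproteins, was at 16.3 and 15.2 CPM in KO Th22 and at 4.15 and 3.82 CPM in KO Th17 (log2 fold change 1.98 ± 0.15, edgeR adjusted p = 0.0052), with tight replicates on both sides. Gpr55, a receptor for lysophospholipids, was at 2.31 and 2.23 CPM in KO Th22 and at 0.388 and 0.534 CPM in KO Th17. Serpinb1a, an inhibitor of serine proteases that is known in mouse Th17 cells, was abundant and differed by less than the others, at 83.4 and 81.1 CPM in KO Th22 and 44.4 and 48.4 CPM in KO Th17 (log2 fold change 0.83 ± 0.10, edgeR adjusted p = 0.033). Rcbtb2 was at 11.7 and 12.04 CPM in KO Th22 and at 5.19 and 6.06 CPM in KO Th17. Calls of Gpr55, Serpinb1a and Rcbtb2 were lost when any of the 8 libraries was left out, with adjusted p up to 0.13, 0.23 and 0.23. Pltp, Gpr55 and Rcbtb2 were named after their values were seen.

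Among 22 tested helper T cell cytokines and related genes, 0 rose and 2 fell, against 0.0447% of all genes tested, 16 were lower by sign, against 6412 of 13412 genes, and the median log2 fold change was -0.24. Il24, an IL-10 family cytokine that lies in a cluster with Il10 (chromosome 1, 130882074 to 130887454, minus strand, ENSMUSG00000026420), was at 3.16 and 3.54 CPM in KO Th22 and at 10.9 and 11.9 CPM in KO Th17. Its log2 fold change was -1.77 ± 0.14 (edgeR adjusted p = 0.0052), and the call held without each of the 8 libraries. Il1rn, which encodes the antagonist of the IL-1 receptor, was at 0.974 and 1.13 CPM in KO Th22 and at 4.004 and 3.43 CPM in KO Th17 (log2 fold change -1.81 ± 0.22, edgeR adjusted p = 0.037). The Il1rn call was lost when any library was left out, with adjusted p up to 0.21.

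Il22, the cytokine after which the Th22 condition is named, was at 16.7 and 32.0 CPM in KO Th22 and at 8.11 and 11.5 CPM in KO Th17. Both Th22 libraries lay above both Th17 libraries, and the log2 fold change of 1.31 ± 0.30 did not pass (edgeR adjusted p = 0.20). It passed without KO Th22 replicate 1 (adjusted p = 0.047) and in DESeq2 (adjusted p = 0.0016). Il17a, which encodes the hallmark cytokine of Th17 cells, was at 5.02 and 5.73 CPM in KO Th22 and at 10.0 and 13.0 CPM in KO Th17 (log2 fold change -1.10 ± 0.18, edgeR adjusted p = 0.097). The Il17a libraries did not overlap, and the gene passed in 5 of the 19 alternatives that set no replicate number as a block, among them thinned cells (adjusted p = 0.030) and library totals (adjusted p = 0.043).

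Il17f, the close relative of Il17a, overlapped between the cultures. It was at 7.20 and 14.0 CPM in KO Th22 and at 6.77 and 14.8 CPM in KO Th17, a log2 fold change of -0.01 ± 0.40 whose sign turned in 4 alternatives. Il2, Tnf and Csf2, which activated T cells make, also overlapped between the cultures, with log2 fold changes of -0.30, -0.42 and -0.08. Ifng was at 0.541 and 1.08 CPM in KO Th22 and at 1.33 and 2.11 CPM in KO Th17 (adjusted p = 0.70). Il10 and Foxp3 were below the filter, with 8 and 10 UMIs over both KO Th22 libraries and 5 and 6 UMIs over both KO Th17 libraries.

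The transcription factors and receptors that define Th17 cells showed no gene past the test. Of 17 tested Th17 core genes, 5 were higher and 12 lower by sign, with a median of -0.09. Ccr6 was at 0.0433 and 0.473 CPM in KO Th22 and at 0.995 and 1.65 CPM in KO Th17. Its log2 fold change was -2.30 (edgeR adjusted p = 0.32), from 2 and 25 UMIs in KO Th22 and 41 and 65 UMIs in KO Th17. Il23r had a log2 fold change of -0.57 and Tbx21, the Th1 master regulator, -0.76. The related membrane proteins Tmem176a and Tmem176b were higher by 0.97 and 1.23 on the log2 scale without passing (adjusted p = 0.12 and 0.21). On thinned cells Tmem176a passed (edgeR adjusted p = 0.043) and Tmem176b did not (0.21). Among 22 cytokine receptors and 21 JAK-STAT and SOCS genes none passed, with medians of -0.02 and 0.06. For the 2 chains of the IL-6 receptor, Il6st had a log2 fold change of 0.55 (adjusted p = 0.22) and Il6ra of -0.24. Socs3, a feedback inhibitor that STAT3 induces, was at 31.0 and 49.7 CPM in KO Th22 and at 24.5 and 34.1 CPM in KO Th17.

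The other genes that fell were named after their values were seen, save Itga3. Itga3, an integrin chain that binds laminin, was at 5.71 and 5.97 CPM in KO Th22 and at 14.4 and 16.9 CPM in KO Th17 (log2 fold change -1.42 ± 0.12, edgeR adjusted p = 0.0077), and its call was lost when any of the 4 WT libraries was left out. Fcmr, a receptor for IgM, was at 1.82 and 2.16 CPM in KO Th22 and at 5.68 and 7.07 CPM in KO Th17. Klf4, a transcription factor that limits the proliferation of CD8 T cells, was at 3.29 and 3.06 CPM in KO Th22 and at 8.98 and 7.91 CPM in KO Th17. Pdzk1ip1, a small membrane-associated protein, was at 0.584 and 0.756 CPM in KO Th22 and at 4.05 and 2.65 CPM in KO Th17. The log2 fold changes of Fcmr, Klf4 and Pdzk1ip1 were -1.68, -1.41 and -2.31 (edgeR adjusted p = 0.016, 0.016 and 0.033), and each call was lost in at least 7 of the 8 fits that left out a library.

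**Figure D2:**
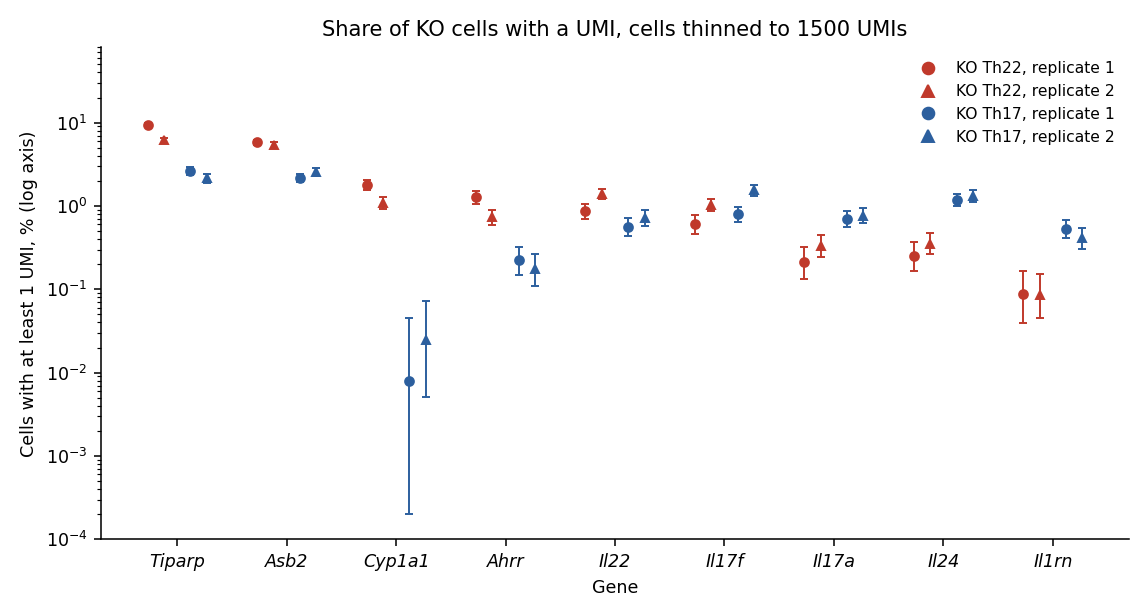
Share of KO cells with at least 1 UMI of each gene, on a log axis, after every cell was thinned to 1500 UMIs, in KO Th22 (red) and KO Th17 (blue) libraries; bars are exact 95% binomial intervals. Tiparp, Asb2, Cyp1a1, Ahrr and Il22 lie higher in both Th22 libraries, Il17a, Il24 and Il1rn lie lower, and Il17f overlaps.

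The same genes were counted per cell after each cell was thinned to 1500 UMIs, which left 48733 KO cells and dropped 4685 shallower ones, 331 and 516 in Th22 against 1783 and 2055 in Th17. With 2 libraries against 2, no two-sided exact permutation p can go below 0.333, so no test was run on shares. Cyp1a1 was found in 1.80% and 1.08% of KO Th22 cells and in 0.00801% and 0.0250% of KO Th17 cells. Tiparp was found in 9.34% and 6.16% of KO Th22 cells and in 2.63% and 2.15% of KO Th17 cells. Asb2 was found in 5.79% and 5.40% of KO Th22 cells and in 2.16% and 2.56% of KO Th17 cells. Even in Th22 cultures most cells had no UMI of a given AHR target, and at 1500 UMIs a cell without a UMI may still express the gene.

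Il22 was found in 0.867% and 1.40% of KO Th22 cells, against 0.561% and 0.724% of KO Th17 cells. Il17a was found in 0.212% and 0.332% of KO Th22 cells, against 0.697% and 0.765% of KO Th17 cells. Il24 was found in 0.250% and 0.354% of KO Th22 cells, against 1.19% and 1.31% of KO Th17 cells. For scale, Cd8a, which CD4 T cells lack, was found in 0.222% and 0.130% of KO Th22 cells and in 0.112% and 0.0915% of KO Th17 cells. The Il17a share of KO Th22 replicate 1 and the Il1rn shares of both Th22 libraries (0.0867% and 0.0866%) were at or below the Cd8a share of their library. No expression was read from these shares alone.

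Within KO Th22 cells, Tiparp was more frequent in cells that also had a Cyp1a1 UMI. It was found in 19.3% (36 of 187, exact 95% interval 13.9 to 25.6) and 12% (18 of 150, 7.27 to 18.3) of cells with a Cyp1a1 UMI in replicates 1 and 2. Among cells without one, Tiparp was found in 9.16% (8.61 to 9.74) and 6.10% (5.71 to 6.51). The intervals did not overlap in either library. Il22 was found in 4 of 187 and 1 of 150 cells with a Cyp1a1 UMI (2.14% and 0.667%), against 0.844% and 1.41% of cells without. The intervals overlapped, and these cells are too few to show a pattern or the lack of one. For Ahrr the shares were 1.60% (3 of 187) and 1.33% (2 of 150) with a Cyp1a1 UMI, against 1.27% and 0.722% without, also with overlapping intervals. For Cyp1b1 they were 2.67% (5 of 187) and 2.0% (3 of 150), against 1.15% and 0.423%, again with overlapping intervals. Gzmb went the other way, at 7.49% (4.15 to 12.2) and 23.3% (16.8 to 30.9) with a Cyp1a1 UMI. Without one it was at 14.7% (14.0 to 15.4) and 28.0% (27.3 to 28.8). The Gzmb intervals did not overlap in replicate 1. Ifitm1 was at 12.3% and 3.33% with a Cyp1a1 UMI, against 7.65% and 4.99% without, with overlapping intervals. Cd3e, a T cell receptor subunit gene and no AHR target, was found in 34.2% and 43.3% of cells with a Cyp1a1 UMI, against 28.9% and 34.9% of cells without. Cd3e was thus also higher by sign with a Cyp1a1 UMI in both libraries. Its intervals overlapped in replicate 1 (27.5 to 41.5 against 28.1 to 29.8). In replicate 2 they overlapped narrowly (35.3 to 51.7 against 34.1 to 35.7). Overlap does not show that the shares were equal. Il17a was found in 6 of 90 and 6 of 194 cells with an Il22 UMI (6.67% and 3.09%), against 0.155% and 0.293% of cells without. Thinned cells still share their library's free RNA, and cells are not replicates.

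**Figure D3:**
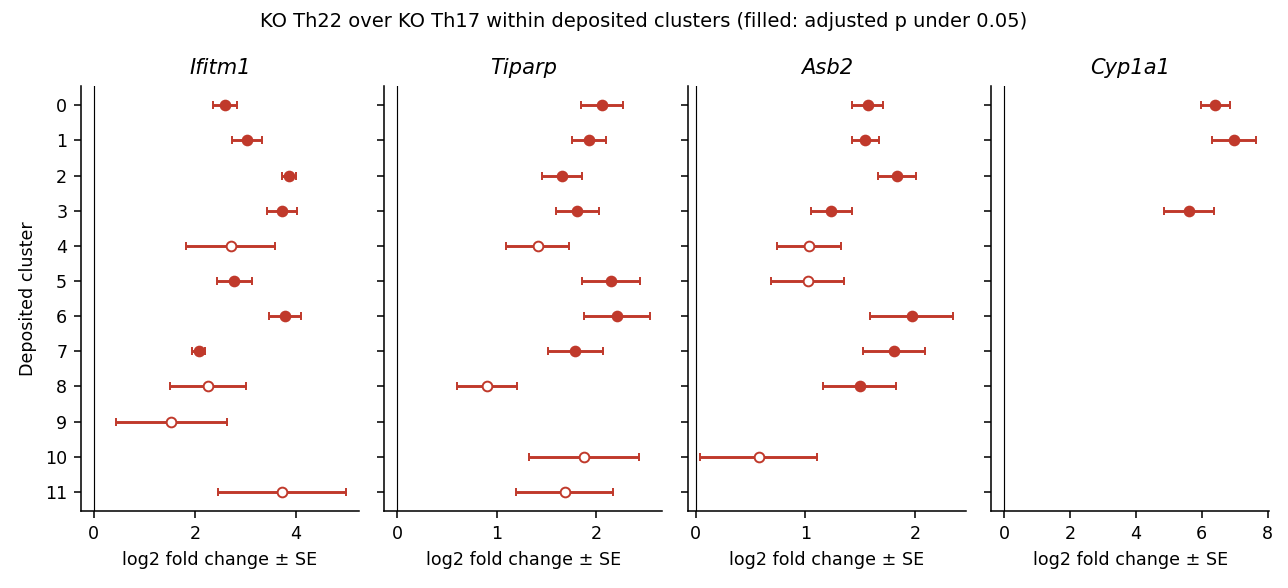
Log2 fold change of KO Th22 over KO Th17 (± SE) for Ifitm1, Tiparp, Asb2 and Cyp1a1 within each deposited cluster of cells; filled points passed at an adjusted p below 0.05 within that cluster. Clusters in which both KO Th17 libraries had no UMI of the gene, or in which it was not tested, have no point. All points lie right of 0, which for Cyp1a1 follows from the count filter, since KO Th17 cells held almost no UMIs of it.

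The deposited cell table assigns every cell to 1 of 12 clusters, and the comparison was repeated on the summed counts of each cluster. Of the genes tested in clusters 0 to 11 in turn, 0.0507%, 0.764%, 0.428%, 0.092%, 0.0766%, 0.0601%, 0.163%, 0.221%, 0.991%, 0.0455%, 0.212% and 0.239% passed. Ifitm1 was higher by sign in KO Th22 in all 12 clusters and passed in 8. Its level differed widely by cluster: in cluster 7 it was at 1010 and 986 CPM in KO Th22 and at 239 and 235 CPM in KO Th17, and in cluster 0 it was at 37.7 and 24.0 CPM in KO Th22 and at 5.66 and 4.47 CPM in KO Th17. Tiparp was higher by sign in all 11 clusters in which it was tested and passed in 7, with log2 fold changes of 1.66 to 2.21 in those. Asb2 was higher by sign in all 10 clusters tested and passed in 7.

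Cyp1a1 was tested in 5 clusters and passed in 4. KO Th17 libraries held 0.287 CPM or less in those 5, so the count filter admitted Cyp1a1 only where Th22 libraries were high. Its direction by cluster is therefore no added support. In cluster 2 both KO Th17 libraries had none, while KO Th22 was at 12.4 and 10.6 CPM, and in clusters 0, 1 and 3 the log2 fold changes were 6.42, 6.98 and 5.62. Il24 was lower by sign in 9 of 10 clusters and passed in 3. Its level was highest in cluster 2, at 23.5 and 31.8 CPM in KO Th22 and 86.1 and 92.9 CPM in KO Th17. Il22 was higher by sign in 6 of 7 clusters and passed in none. Il17a was lower by sign in 4 of 5 clusters and passed in cluster 2 alone, at 49.1 and 58.8 CPM in KO Th22 and 98.7 and 126 CPM in KO Th17 (log2 fold change -1.06, edgeR adjusted p = 0.0091).

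**Figure D4:**
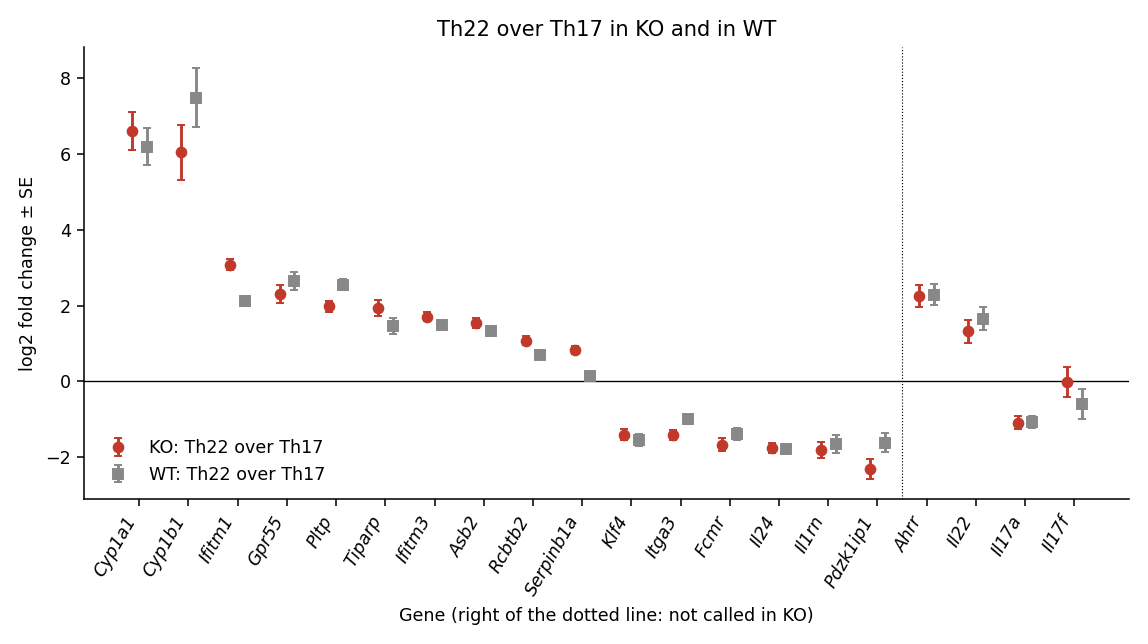
Log2 fold change of Th22 over Th17 (± SE, edgeR) in KO (red circles, left) and WT (grey squares) for the 16 genes that passed in KO and, right of the dotted line, for Ahrr, Il22, Il17a and Il17f. The 16 genes have the same sign in both genotypes, and Serpinb1a is the gene whose WT value lies nearest 0.

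Th22 and Th17 cells were also compared within WT, in separate libraries, to see where the response with Gpr65 absent differed from that with Gpr65 present. In WT 20 genes passed (0.149%). The 2 sets shared 11 genes, 68.75% of those in KO and 55% of those in WT. All 16 KO genes had the same sign in WT, against 61.7% of all genes tested. No gene passed the test of the difference between the KO and the WT response (0 of 13412, 0%, edgeR, smallest adjusted p = 0.90). At an unadjusted p below 0.05 there were 566 genes, and DESeq2 called 12 of the 5091 genes to which it gave an adjusted p.

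Side by side, the AHR targets and the cytokines had these values in the 2 genotypes. The log2 fold change of Cyp1a1 was 6.61 ± 0.51 in KO and 6.20 ± 0.49 in WT, of Tiparp 1.94 ± 0.21 in KO and 1.46 ± 0.21 in WT, and of Ahrr 2.25 ± 0.29 in KO and 2.29 ± 0.29 in WT. Il22 had 1.31 ± 0.30 in KO and 1.65 in WT, Il17a -1.10 ± 0.18 in KO and -1.07 in WT, and Il24 -1.77 ± 0.14 in KO and -1.80 ± 0.13 in WT. None of these differences passed, which does not show that the responses were equal. Pdzk1ip1, Il1rn, Serpinb1a, Rcbtb2 and Tiparp passed in KO and not in WT.

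Ifitm1 and Serpinb1a were the called genes with the smallest unadjusted p for a difference. Ifitm1 was at 157 and 125 CPM in KO Th22 and 17.8 and 15.6 CPM in KO Th17, while its means were 588 ± 34.6 CPM in WT Th22 and 135 ± 11.98 CPM in WT Th17 (SD, n = 2 each). The log2 fold change was 3.08 in KO and 2.12 in WT, a difference of 0.96 ± 0.19 (edgeR unadjusted p = 0.0012, adjusted p = 0.90). Serpinb1a had a log2 fold change of 0.83 in KO and 0.13 in WT, a difference of 0.69 ± 0.13 (edgeR unadjusted p = 0.00095, adjusted p = 0.90). Its 2 KO Th17 libraries, at 44.4 and 48.4 CPM, stood below the other 6 libraries of the series, which ran from 81.1 to 107 CPM.

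**Figure D5:**
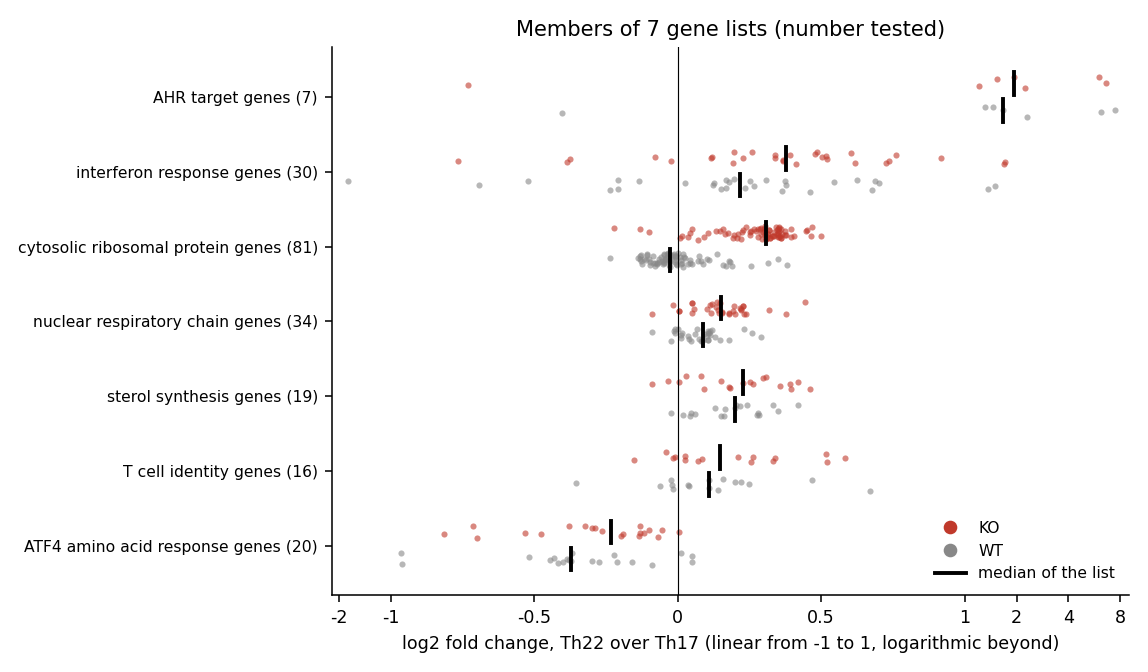
Log2 fold change of Th22 over Th17 for each tested member of 7 gene lists in KO (red, upper row) and WT (grey, lower row); black bars are list medians, and the axis is linear between -1 and 1 and logarithmic beyond. AHR targets lie far right in both genotypes, and cytosolic ribosomal protein genes lie right of 0 in KO, with a median of 0.31, and around 0 in WT, with a median of -0.03.

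Other programmes were described by lists, of which 47 of 48 had a tested member and 43 had no member past the test. Interferon response genes had 30 tested members, 1 of which passed, Ifitm3. By sign 25 were higher, both Th22 libraries lay above both Th17 libraries for 16, against 17.9% of all genes tested, and the median was 0.38. The RNA sensor Ddx58 was at 15.5 and 16.6 CPM in KO Th22 and at 9.49 and 9.80 CPM in KO Th17 (log2 fold change 0.74, edgeR adjusted p = 0.077). Ifi27l2a was at 917 and 1069 CPM in KO Th22 and at 596 and 605 CPM in KO Th17 (log2 fold change 0.73, adjusted p = 0.098). Canonical members were not among those higher: Isg15 had a log2 fold change of -0.02 and Ifit1 of -0.38, both named after their values were seen. The median was 0.54 on thinned cells and 0.03 with the depth covariate.

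Cytosolic ribosomal protein genes, listed after values had been seen, had no member past the test. By sign 78 of 81 were higher, against 6999 of 13412 genes, and 71 were higher in both Th22 libraries than in both Th17 libraries, against 17.9% of all genes tested. Their summed level, in CPM without scaling factors, was 473893 and 492636 in KO Th22, against 452019 and 448317 in KO Th17. In WT the summed level was 465091 and 455556 CPM in Th22, against 458572 and 465962 CPM in Th17. The median log2 fold change was 0.31 in KO and -0.03 in WT. Rps18 was at 7091 and 7647 CPM in KO Th22 and at 5605 and 5518 CPM in KO Th17 (log2 fold change 0.41, edgeR adjusted p = 0.12), and Rpl27 was at 3890 and 4517 CPM in KO Th22 and 2939 and 3003 CPM in KO Th17 (0.50, adjusted p = 0.18). The KO median was 0.30 on thinned cells, 0.27 with the depth covariate and 0.14 with library totals. It was 0.23 without KO Th22 replicate 2 and 0.38 without KO Th22 replicate 1.

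Genes of the ATF4 amino acid response ran the other way, with 19 of 20 lower by sign, none past the test and a median of -0.23 in KO and -0.37 in WT. Both Th22 libraries lay below both Th17 libraries for 8 of them, against 16.5% of all genes tested. The serine synthesis enzyme Psat1 was at 62.8 and 70.3 CPM in KO Th22 and at 89.4 and 83.6 CPM in KO Th17 (log2 fold change -0.38, edgeR adjusted p = 0.26). The arginine transporter Slc7a1 was at 19.7 and 28.5 CPM in KO Th22 and at 31.9 and 46.3 CPM in KO Th17. The median lay between -0.40 and -0.22 over the 21 alternatives.

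Nuclear genes of the respiratory chain were higher by sign in 32 of 34 cases, with a median of 0.15, and sterol synthesis genes had 17 of 19 higher and a median of 0.23, none past the test. With library totals these medians were -0.02 and 0.06, against -0.15 over all genes. The sterol median was -0.17 without KO Th22 replicate 2. Of 16 T cell identity genes, 12 were higher and 4 lower by sign, and none passed. Their median was 0.15, and -0.03 with library totals. The T cell receptor components Cd3d, Cd3g and Trbc2 had log2 fold changes of 0.52, 0.58 and 0.52 (edgeR adjusted p between 0.097 and 0.12). Klf2, a factor of resting T cells, was at 48.6 and 47.1 CPM in KO Th22 and at 21.8 and 27.6 CPM in KO Th17 (0.96, adjusted p = 0.077). Klf2 passed on thinned cells (edgeR adjusted p = 0.015).

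Hamp, Odc1, Bcl2l1 and Gzmb also did not pass, and of these Hamp had the largest fold change. Hamp, the gene of the iron-regulating peptide hepcidin, was at 3.16 and 1.74 CPM in KO Th22 and at 18.9 and 9.39 CPM in KO Th17 (log2 fold change -2.54 ± 0.42, edgeR adjusted p = 0.097). Odc1, which makes polyamines, was at 161 and 158 CPM in KO Th22 and at 297 and 238 CPM in KO Th17 (-0.75, adjusted p = 0.097). The survival gene Bcl2l1 was at 18.0 and 19.5 CPM in KO Th22 and at 31.7 and 29.9 CPM in KO Th17 (-0.72, adjusted p = 0.077). Odc1 and Bcl2l1 passed with library totals, a scaling that moved the median of all genes to -0.15 and so favours falls. On thinned cells Hamp and Bcl2l1 passed (edgeR adjusted p = 0.043 each) and Odc1 did not (0.059). Gzmb, the granzyme of cytotoxic granules, was at 208 and 399 CPM in KO Th22 and at 137 and 234 CPM in KO Th17 (0.71, adjusted p = 0.52), with overlapping libraries.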

How the data were processed

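Splenic mouse CD4 T cells were profiled with the 10x Genomics Chromium 3′ kit, version 3. The authors deposited a matrix of UMI counts for 16649 gene symbols and 104660 cells, unnormalized, and a cell table with the library, culture, genotype and cluster of each cell. The deposited table also gives a percent of mitochondrial UMIs per cell, at most 9.992, and scores of the S and G2/M phases, which were used as deposited. The submitters' processing notes name Cell Ranger 5.0.1, Seurat and mm10 but not their steps. The making of the clusters and scores, and whether counting used strand, are not stated in the labels or files.

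Cells needed at least 500 genes and no more than 10% mitochondrial UMIs, which removed 1538 of 54956 KO cells. Doublets were not removed, and leaving out the 8% of cells with the most UMIs per library is an alternative. KO libraries shared 0.342% to 0.549% of cell barcodes. Counts were summed per library and tested with edgeR 4.0.16 in R 4.3.3 (TMM, filterByExpr on the 4 groups, robust quasi-likelihood fit, 4 residual degrees of freedom, Benjamini-Hochberg adjustment at 0.05). The script was tested on simulated data. DESeq2 1.42.0 was an alternative. Log2 fold changes have the standard error implied by the test. Shares of cells came from cells thinned to 1500 UMIs (random seed 1), with exact 95% binomial intervals that cover counting error only. Clusters were tested where each library had at least 20 cells. Gene positions come from GENCODE M21 on mm10 by symbol (98.4% matched 1 gene), and promoters from RefSeq on GRCm38.p6.

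The cells and all gene lists were chosen with earlier results of these data known, the ribosomal protein list after values had been seen here. Named genes are the 15 largest rises and 15 largest falls among genes that passed, averaged 10 CPM or more over the KO libraries and had no overlap of libraries, which took 5 and 1 genes. To these come the 4 (or fewer) members of each described list whose adjusted p was smallest, and Ahr, Ahrr, Tiparp, Cyp1a1, Gpr65, Il22, Il17f, Il17a, Il23r, Il24, Il1rn, Csf2, Tbx21, Gzmb, Tnf, Il2, Ifng, Il10, Foxp3, Il6ra, Il6st and Socs3. Genes without a name and receptor variable segments were not named, and a gene that this rule takes is not reported here. Alternatives were other scaling, no filter, thinned cells, a depth covariate, other cell sets, fits of the KO libraries alone, a block on the replicate number and leaving out each library. Scaling by library totals alone was added after seeing the data.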

Additional observations from a re-analysis of the deposited data

How the results depend on the processing

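The 16 genes that passed kept their direction in all 21 alternatives, and 15 of them also passed on thinned cells. The counts of higher and lower genes were 10 and 6. They were 0 and 0 with only the 4 KO libraries, 18 and 14 without the low-count filter, 16 and 13 on thinned cells, 2 and 0 with the depth covariate, 8 and 17 with library totals, and 71 and 110 in DESeq2. Leaving out a library gave 5 to 9 higher and 1 to 4 lower genes, and 6 genes passed without each of the 8 (Ifitm1, Ifitm3, Asb2, Cyp1a1, Pltp and Il24). DESeq2 called 12 genes for the difference between genotypes, against 0. The cause of these moves was not tested. Deviations of same-numbered KO libraries from their group means correlated (r = 0.88 over 6339 genes of at least 10 CPM, and 0.64 in WT). With 2 libraries a group this is a single value per genotype, and its sign turns if the numbers of a group are swapped. Between KO and WT libraries of replicate 1, r was -0.56 in Th22 and -0.51 in Th17. The labels do not say what a number marks and 2 pairs are too few to tell, so the numbers were not taken as pairs. With the replicate block, 1103 genes were higher and 1166 lower (1054 and 1261 with the KO libraries alone), and 550 passed for the difference between genotypes. The 16 genes passed in both fits, as did Ahr, Ahrr, Il22, Il17a, Gzmb, Tnf and Socs3 among others. Of the genes that did not pass, the log2 fold change turned positive for Il17f (0.49 with the depth covariate, 0.0015 without clusters 7, 9 and 11, -0.58 to 0.65 with a library left out), Ahr (-0.88 to 0.081 with a library left out), Csf2 (0.11 on thinned cells, 0.73 with the covariate, 0.093 in cells with both phase scores below 0, -1.09 to 0.70 with a library left out), Tnf (0.14 with the covariate, -1.10 to 0.044 with a library left out) and Il2 (0.79 with the covariate, -0.90 to 0.67 with a library left out). Without thinning, the difference in the share of cells (Th22 minus Th17, percentage points) was 3.76 for Cyp1a1, 2.30 for Ahrr, 14.6 for Tiparp, 10.5 for Asb2, 1.04 for Il22, -1.28 for Il24, -0.53 for Il1rn and 0.038 for Il17f, whose sign turned. Depth per cell limits the shares of the cytokines, which rest on few cells.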

Other observations

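Of 17 tested chemokines and their receptors, none passed the edgeR test, and members went both ways. By sign 12 were lower in KO Th22, against 6412 of 13412 genes, and the median log2 fold change was -0.32 in KO, against 0.01 over all genes (-0.75 in WT). Ccl5, a chemokine of effector T cells, was at 9.93 and 23.7 CPM in KO Th22 and at 45.4 and 60.4 CPM in KO Th17 (log2 fold change -1.65, edgeR adjusted p = 0.21). Gpr183, a receptor for oxysterols that guides lymphocytes, was at 49.5 and 59.0 CPM in KO Th22 and at 80.8 and 96.3 CPM in KO Th17 (-0.71 in KO and 0.20 in WT, adjusted p = 0.25 in KO). Ccr1 was at 0.995 and 0.737 CPM in KO Th22 and 0.0971 and 0.127 CPM in KO Th17 (2.92, adjusted p = 0.11). Of 12 cAMP response genes, 8 were lower by sign and none passed, with a median of -0.24 in KO and -0.54 in WT. Among them the kinase Sik1 was at 6.71 and 5.35 CPM in KO Th22 and at 12.5 and 8.96 CPM in KO Th17 (adjusted p = 0.23).

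Of 42 S phase genes 33 were higher by sign in KO Th22 and of 52 G2/M genes 41 were, against 6999 of 13412 genes. The medians were 0.10 and 0.12, and none passed the test. Both Th22 libraries lay above both Th17 libraries for 2 of 42 S phase and 9 of 52 G2/M genes, against 17.9% of all genes tested. The G2/M count was near that share and the S phase count below it. The summed S phase level, in CPM without scaling factors, was 872 and 779 in KO Th22 and 988 and 791 in KO Th17. The share of cells with a deposited S score above 0 was 36.6% and 32.0% in KO Th22 and 44.3% and 31.3% in KO Th17, and KO Th17 replicate 1 stood highest.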
